A study of Bos taurus with 2 samples.

Results

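Of the genes measured in nuclei of bovine (Bos taurus) blastoids and blastocysts, 10 belong to the Hippo pathway or to the TEAD transcription factors it acts through. They were taken by symbol from a fixed list, with no threshold on a measured value, although that list was drawn up with earlier results of these data known: YAP1, WWTR1, TEAD1, TEAD2, TEAD3, TEAD4, LATS1, LATS2, WWC1 and AMOTL2. All 10 symbols were found among the 35643 features listed by both libraries. The question followed here was at what level each lineage of the embryo carries these transcripts, and how the blastoid nuclei compare. The blastocyst library came from day-8 embryos with the genotype given as WT. The blastoid library, also WT, came from blastocyst-like structures assembled in microwells from bEPSC, bXEN and bTSC cultures, which were seeded at 8, 8 and 16 cells. The aggregation medium held 20 ng/ml LIF, 10 ng/ml activin A, CHIR99021 and the CEPT mixture, in which chroman-1 (50 nM), an inhibitor of ROCK kinases, is a component. Nuclei were isolated from frozen material in each case, and the labels do not say how many embryos or blastoids were pooled.

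Hippo signalling is a kinase cascade that reads cell contact, polarity and tension. When it is active, the LATS kinases phosphorylate the coactivators YAP1 and WWTR1 (the gene for TAZ), which then stay in the cytoplasm. When it is inactive, the coactivators enter the nucleus and act through TEAD proteins, which bind DNA. In the mouse blastocyst the outer, polarised cells keep nuclear YAP with TEAD4 and become trophectoderm, the lineage of the placenta, while inner cells give epiblast and hypoblast. RNA counts do not measure phosphorylation or the place of a protein.

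Each group had 1 library, so no difference below has a replicate error or a test. Intervals are exact 95% intervals that cover counting error only. The blastoid library kept 1914 barcodes with 7481886 UMIs (unique molecular identifiers, each counting 1 captured RNA molecule), and the blastocyst library 827 barcodes with 6861558 UMIs. 1 barcode sequence occurred in both libraries. Barcodes in which over 5% of UMIs came from ribosomal protein genes were set apart as ribosomal-rich. They made up 85.6% of the blastoid barcodes, with a median of 1928.5 UMIs, and 6.89% of the blastocyst barcodes, with a median of 1132 UMIs. The remaining nuclei were clustered without the pathway genes or the lineage markers. In the blastocyst, 238 nuclei were trophectoderm-like, 390 hypoblast-like, 65 epiblast-like and 77 unnamed. In the blastoid, 148 nuclei were trophectoderm-like and 128 stayed unnamed, and no cluster met the rule for an epiblast-like or hypoblast-like name at this setting. A small hypoblast-like blastoid class did appear under alternatives, with 14 nuclei at a clustering resolution of 1, 13 at a ribosomal limit of 10% and 9 with classes gated by marker UMIs, where 1 nucleus was epiblast-like. The names are rebuilt from markers and have limits. The epiblast-like class carried NANOG and also HNF4A, a hypoblast marker, at 565 CPM (556 CPM in hypoblast-like nuclei). The unnamed blastoid nuclei were led by SRGAP3, MLLT3 and DCC, and the 18 neural markers with a symbol summed to 1965 CPM there, against 209 CPM in the trophectoderm-like nuclei of the same library. GATA2, a trophectoderm marker, stood at 478 CPM in the blastocyst and 334 CPM in the blastoid trophectoderm-like class.

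Levels are given as CPM, the UMIs of a gene as a share of all UMIs summed over the nuclei of a class, on the usual CPM scale. CPM is not divided by gene length, so levels are compared between classes for 1 gene and not between genes.

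**Figure D1:**
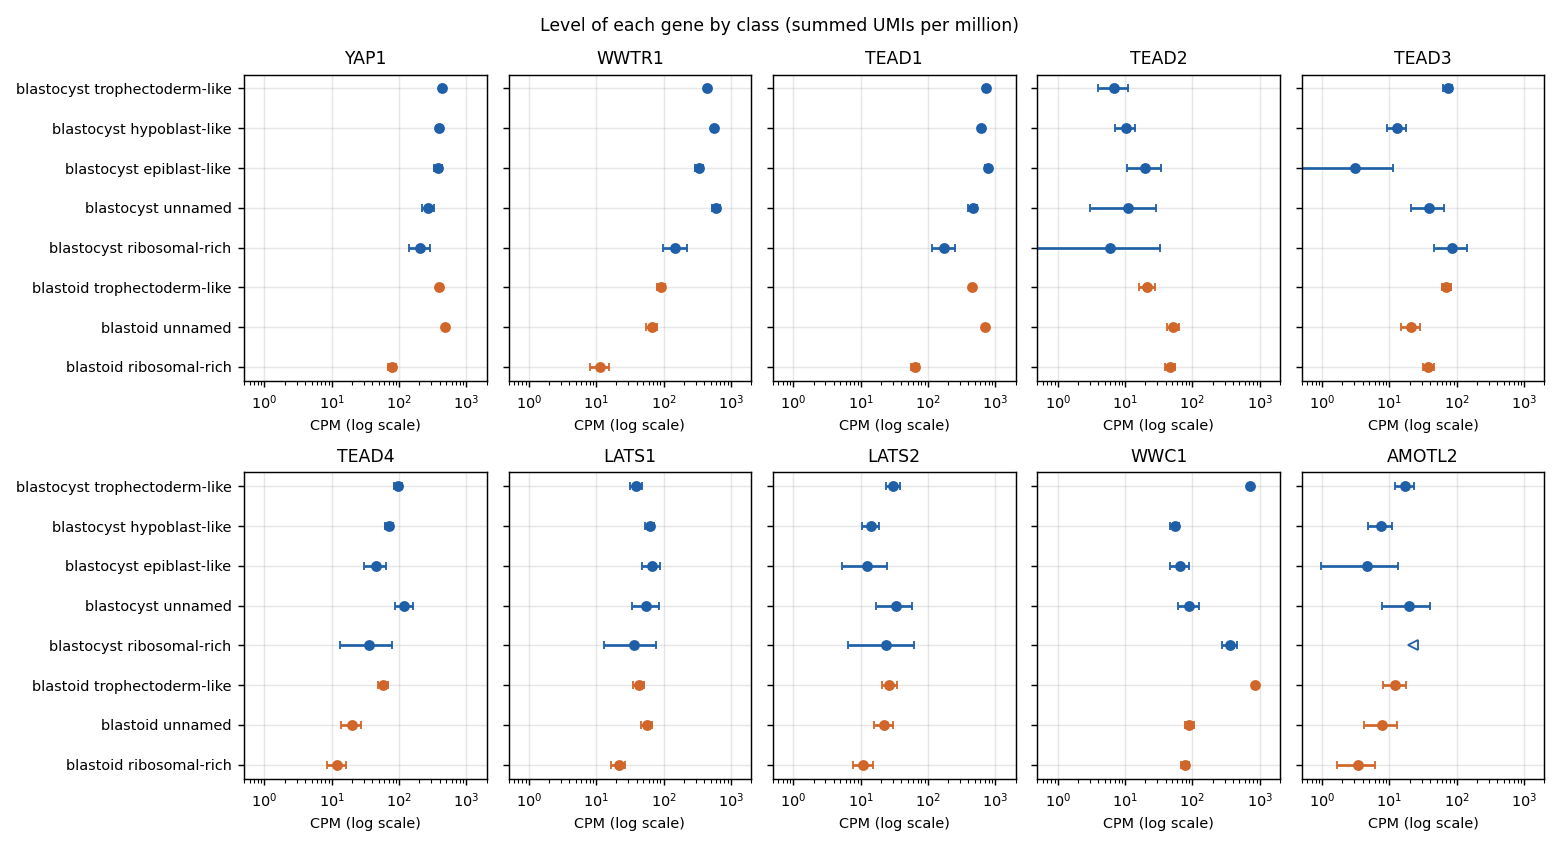
Level of each of the 10 genes in every class, in CPM on a log scale, with blastocyst classes in blue and blastoid classes in orange. Points are levels from summed UMIs, bars are exact Poisson 95% intervals, and the open triangle is the upper limit where no UMI was counted. WWTR1 lies lower in every blastoid class than in the blastocyst classes under the ribosomal limit, while the interval of the ribosomal-rich blastocyst barcodes (96.6 to 220 CPM, 25 UMIs, 64.0% of them in 1 barcode) overlaps that of blastoid trophectoderm-like nuclei, and WWC1 lies highest in both trophectoderm-like classes.

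The coactivators differed from each other in how the blastoid compared with the embryo. YAP1 was at 438 CPM (412 to 466) in blastocyst trophectoderm-like nuclei and 397 CPM (372 to 423) in blastoid trophectoderm-like nuclei. The levels were therefore close, and the ratio of blastoid to blastocyst was 0.906 (0.828 to 0.990). Across the blastocyst the hypoblast-like class had 387 CPM of YAP1 and the epiblast-like class 380 CPM, and these intervals overlapped. The unnamed blastoid nuclei had the highest YAP1 level of all classes, 478 CPM (447 to 511), an interval that overlapped that of blastocyst trophectoderm-like nuclei. The ribosomal-rich blastoid barcodes had the lowest, 78.7 CPM.

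WWTR1 was much lower in the blastoid. In trophectoderm-like nuclei it was at 438 CPM (411 to 465; 1027 UMIs) in the blastocyst and 91.6 CPM (79.9 to 105; 219 UMIs) in the blastoid, which is 4.78-fold lower (4.13 to 5.56). Among the blastocyst classes, WWTR1 was highest in the unnamed nuclei (601 CPM) and the hypoblast-like nuclei (563 CPM), whose intervals overlapped. The trophectoderm-like nuclei came next and the epiblast-like nuclei followed at 333 CPM (290 to 381), with intervals that did not overlap. With at least 1000 genes per barcode this order of the latter classes turned, since the log2 ratio to hypoblast-like nuclei was −0.44 for trophectoderm-like and −0.06 for epiblast-like nuclei. In the blastoid the unnamed nuclei had 66.9 CPM of WWTR1 (55.5 to 79.8) and the ribosomal-rich barcodes 11.3 CPM (7.98 to 15.6). No blastoid class thus reached the WWTR1 level of any blastocyst class under the ribosomal limit. The trophectoderm-like nuclei of the blastoid were deeper than those of the blastocyst, with medians of 15004 and 8661 UMIs, and held more ribosomal protein UMIs, 2.42% against 0.756%. The part of either in the WWTR1 difference was not tested.

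Taken as a share of the UMIs of both coactivators, which is comparable between classes only, WWTR1 made up 50.0% (47.8% to 52.2%) in blastocyst trophectoderm-like nuclei and 18.8% (16.5% to 21.1%) in blastoid trophectoderm-like nuclei. The share was 59.3% in the hypoblast-like and 46.8% in the epiblast-like class of the blastocyst. In the blastoid it was 12.3% in the unnamed nuclei and 12.6% in the ribosomal-rich barcodes. All 3 blastoid shares were below all 5 blastocyst shares, of which the lowest, in the ribosomal-rich barcodes, was 42.4% (29.6% to 55.9%).

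WWTR1 also varied inside the blastocyst classes. The hypoblast-like class joined a cluster of 333 nuclei with 495 CPM of WWTR1 (470 to 522) and a cluster of 57 nuclei, led by TSPAN2, RBM20, HS3ST3A1 and the hypoblast factor GATA4, with 940 CPM (857 to 1028). At a finer clustering resolution of 1, the trophectoderm-like nuclei of the blastocyst split into 191 nuclei with 361 CPM of WWTR1 and 53 nuclei with 711 CPM. The 3 trophectoderm-like clusters of the blastoid at that resolution had 86.2, 92.9 and 95.3 CPM with overlapping intervals. Even the lowest blastocyst cluster was therefore above the highest of these.

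Among the TEAD factors, TEAD1 was present in every class. It was at 723 CPM (689 to 758) in blastocyst trophectoderm-like nuclei and at 447 CPM (421 to 475) in the blastoid ones, a ratio of 0.619 (0.573 to 0.668). The unnamed blastoid nuclei had 700 CPM of TEAD1 (662 to 739), an interval that overlapped that of the blastocyst trophectoderm-like class. The epiblast-like class was at 773 CPM and the hypoblast-like class at 617 CPM.

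TEAD2 went the other way. Only 16 UMIs of it were counted in blastocyst trophectoderm-like nuclei (6.82 CPM, 3.90 to 11.1) and 51 in blastoid trophectoderm-like nuclei (21.3 CPM, 15.9 to 28.0), a ratio of 3.13 (1.75 to 5.87). The unnamed and the ribosomal-rich barcodes of the blastoid had 51.5 CPM and 46.8 CPM of TEAD2, and these intervals overlapped. In the blastocyst, the epiblast-like class was at 20.1 CPM (10.7 to 34.3) and the hypoblast-like class at 10.2 CPM (7.05 to 14.2), which also overlapped.

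TEAD3 was higher in blastocyst trophectoderm-like than in hypoblast-like nuclei, and higher in blastoid trophectoderm-like than in unnamed blastoid nuclei. It was at 72.9 CPM (62.4 to 84.7) in blastocyst trophectoderm-like nuclei and at 69.8 CPM (59.7 to 81.3) in blastoid ones, a ratio of 0.958 (0.769 to 1.19). The hypoblast-like class had 12.9 CPM of TEAD3, the epiblast-like class 2 UMIs in all, and the unnamed blastoid nuclei 20.8 CPM. The unnamed blastocyst nuclei had 38.8 CPM (21.2 to 65.0), an interval that met that of the trophectoderm-like class, and the ribosomal-rich blastoid barcodes 38.0 CPM. The ribosomal-rich blastocyst barcodes had 83.6 CPM (45.7 to 140), which overlapped both trophectoderm-like classes and rested on 14 UMIs, with 1 barcode holding 50.0% of them. Within the blastocyst the trophectoderm-like class was 5.66-fold higher (4.03 to 8.11) than the hypoblast-like class, and within the blastoid 3.35-fold higher (2.35 to 4.90) than the unnamed nuclei.

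TEAD4 is the TEAD factor tied to trophectoderm formation in the mouse. In the bovine blastocyst its level was 96.4 CPM (84.2 to 110) in trophectoderm-like, 71.3 CPM (62.5 to 80.9) in hypoblast-like, 44.7 CPM (29 UMIs) in epiblast-like and 119 CPM (86.1 to 160) in unnamed nuclei. The trophectoderm-like class was above the hypoblast-like class by a ratio of 1.35 (1.12 to 1.63). In the blastoid, the trophectoderm-like nuclei had 57.7 CPM of TEAD4 (48.5 to 68.2) and the unnamed nuclei 19.7 CPM (13.8 to 27.3). The blastoid contrast was 2.93-fold (2.01 to 4.35), but with at least 1000 genes per barcode it was 0.55 on the log2 scale and with at least 4000 UMIs 0.62, against 1.55, so it did not pass 2-fold there. Classes were rebuilt under these filters. The blastoid had 103 trophectoderm-like and 168 unnamed nuclei with at least 1000 genes, and 104 and 166 with at least 4000 UMIs. At the main setting these numbers were 148 and 128. The unnamed class thus grew under stricter filters, so the classes compared did not hold the same nuclei. Between libraries, TEAD4 in trophectoderm-like nuclei had a ratio of 0.599 (0.481 to 0.743).

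The 4 TEAD factors thus did not move together between the trophectoderm-like nuclei of the libraries: TEAD2 was higher in the blastoid, TEAD1 and TEAD4 were lower within 2-fold, and the interval of TEAD3 included 1. As a share of all TEAD UMIs, TEAD2 made up 0.759% in blastocyst and 3.58% in blastoid trophectoderm-like nuclei.

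The LATS kinases, which phosphorylate the coactivators, did not differ between the trophectoderm-like nuclei of the libraries beyond counting error. LATS1 was at 39.2 CPM (31.6 to 48.1) in blastocyst and 42.7 CPM (34.8 to 51.8) in blastoid trophectoderm-like nuclei, a ratio of 1.09 (0.812 to 1.46). LATS2 was at 30.7 CPM (24.0 to 38.7) and 26.8 CPM (20.6 to 34.2), a ratio of 0.872 (0.613 to 1.24). In whole libraries LATS1 was lower in the blastoid, with a ratio of 0.683 (0.582 to 0.801). At this depth, a LATS1 level up to 1.46 times or a LATS2 level down to 0.613 times that of the embryo lies inside the intervals. Inside the blastocyst the paralogs ran in opposite directions. LATS1 was lower in trophectoderm-like than in hypoblast-like nuclei, with a ratio of 0.633 (0.489 to 0.813), and LATS2 was 2.14-fold higher (1.46 to 3.14). The share of LATS UMIs that came from LATS2 was 43.9% (36.2% to 51.9%) in trophectoderm-like and 18.8% (14.2% to 24.2%) in hypoblast-like nuclei of the blastocyst. In the blastoid it was 38.6% (31.1% to 46.4%) in trophectoderm-like and 28.2% (20.9% to 36.3%) in unnamed nuclei, and these intervals overlapped.

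WWC1 (KIBRA), a scaffold that promotes LATS activity at cell junctions, showed the widest contrast of the 10 genes between lineages. It was at 722 CPM (688 to 757) in blastocyst trophectoderm-like nuclei and 54.8 CPM (47.2 to 63.3) in hypoblast-like nuclei, a 13.2-fold difference (11.3 to 15.4). The epiblast-like class had 64.8 CPM of WWC1 (46.7 to 87.6), overlapping the hypoblast-like class. In the blastoid, the trophectoderm-like nuclei had 859 CPM (822 to 897), slightly above the blastocyst (ratio 1.19, 1.12 to 1.27), and the unnamed nuclei 90.4 CPM. The blastoid contrast of 3.25 on the log2 scale was 1.21 with at least 1000 genes per barcode and 1.28 with at least 4000 UMIs. As described for TEAD4, the classes were rebuilt under these filters and did not hold the same nuclei. The contrast was 4.20 at resolution 1.

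AMOTL2, an angiomotin-like junction protein that binds YAP and whose gene is itself a YAP target, was sparse. Its level was 17.1 CPM (12.2 to 23.2; 40 UMIs) in blastocyst and 12.1 CPM (8.12 to 17.4; 29 UMIs) in blastoid trophectoderm-like nuclei, and these intervals overlapped. Against the hypoblast-like class of the blastocyst the trophectoderm-like class was 2.28-fold higher (1.35 to 3.92). The unnamed blastoid nuclei had 14 UMIs of AMOTL2 (7.67 CPM) and the epiblast-like class 3.

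**Figure D2:**
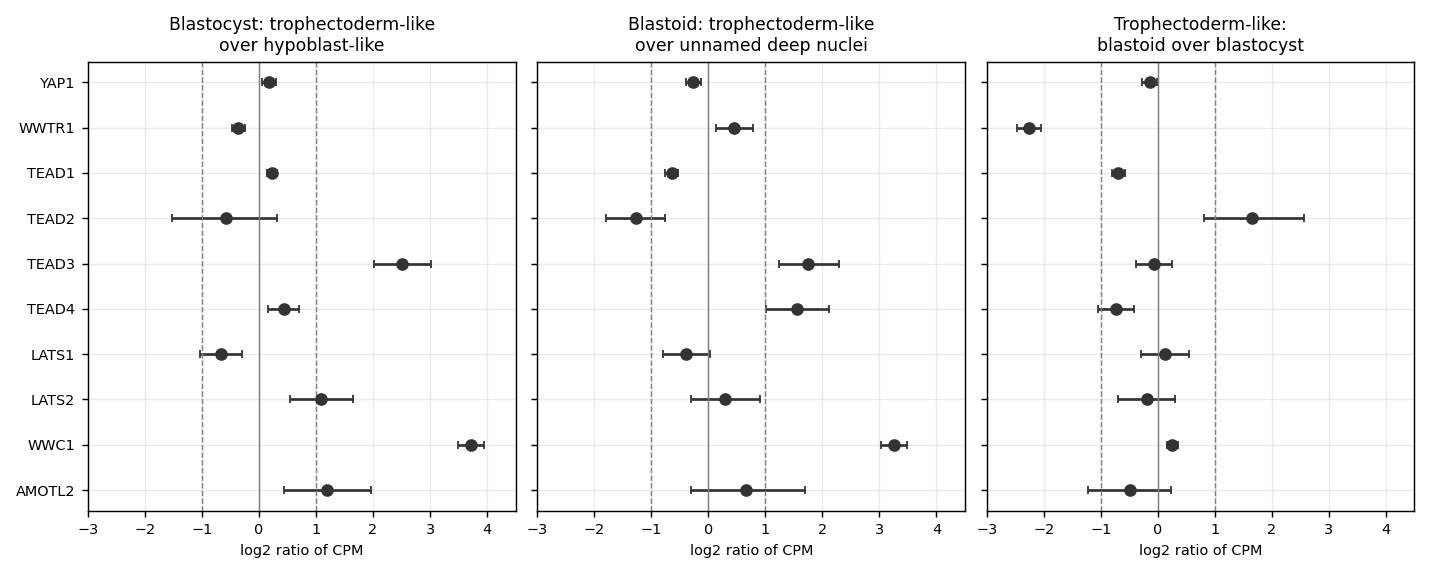
log2 ratios of CPM for the 10 genes in 3 comparisons: blastocyst trophectoderm-like over hypoblast-like, blastoid trophectoderm-like over unnamed nuclei, and blastoid over blastocyst within trophectoderm-like nuclei. Bars are exact conditional 95% intervals for counting error and dashed lines mark 2-fold. WWC1 and TEAD3 are past 2-fold upward in both comparisons within a library, of which the blastoid one is against nuclei without a lineage name. WWTR1 and TEAD2 are past 2-fold, in opposite directions, between the libraries.

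Counted over the 10 genes, few differed by 2-fold or more between the trophectoderm-like nuclei of the libraries. In the blastoid, TEAD2 was higher and WWTR1 lower, 1 gene each way, where 18.0% of 12861 features with at least 20 UMIs in the 2 sums were higher and 13.2% lower. The median log2 ratio of the members was −0.17, beside 0.08 over all these features. The count of 2 genes in 10 is below the background share, so the members are not set apart as a group by it.

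In the blastocyst, 4 of the 10 genes (WWC1, TEAD3, AMOTL2 and LATS2) were at least 2-fold higher in trophectoderm-like than in hypoblast-like nuclei and 0 were lower. Of all features, 12.9% were higher and 17.2% lower. The median of the members was 0.33 and that of all features −0.21. With the mean of per-nucleus CPM, or with classes gated by marker UMIs, the count was 2 in place of 4, and the share of all features was not counted there.

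Between the epiblast-like and hypoblast-like nuclei, 0 genes were 2-fold higher and 1 was lower, TEAD3 with 2 against 43 UMIs (ratio 0.240, 0.0281 to 0.920). The background was 5.46% higher and 6.68% lower. WWTR1 had a ratio of 0.592 (0.512 to 0.682), or −0.76 on the log2 scale, and −0.06 with at least 1000 genes per barcode. TEAD2 had a ratio of 1.97 (0.954 to 3.83), or 0.98 on the log2 scale, and −0.26 with classes gated by marker UMIs. The other 7 ratios lay between 0.618 and 1.25. The epiblast-like sum holds 65 nuclei, 7.86% of the kept barcodes, and that share ran from 5.24% to 19.4% over the settings that gave such a class. With at least 1000 genes per barcode, TEAD3 changed direction to 1.47 on the log2 scale, TEAD4 from −0.67 to 0.48 and TEAD1 from 0.33 to −0.48. In all, 9 of the 10 genes, all but WWTR1, had the other sign in at least 1 alternative, so no order between these classes is read from them.

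Within the blastoid, 3 genes (WWC1, TEAD3 and TEAD4) were at least 2-fold higher in trophectoderm-like than in unnamed nuclei and 1 was lower, TEAD2, with a fold of 2.42 (1.70 to 3.47). TEAD3 was at 1.16 on the log2 scale with at least 1000 genes per barcode, in place of 1.75, with the classes rebuilt under that filter. The background was 17.1% higher and 19.4% lower. The medians were 0.37 over the members and 0.00 over all features. YAP1 and TEAD1 were lower in the trophectoderm-like nuclei by less than 2-fold, at ratios of 0.831 (0.757 to 0.912) and 0.639 (0.589 to 0.694). WWC1 and TEAD3, the genes with the highest ratios, were those of the blastocyst comparison as well.

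Whole libraries were also compared, with the different class makeup of each in them. Fewer cells of a type and less RNA per cell cannot be told apart in such sums. The blastoid library held 378 UMIs of WWTR1 and the blastocyst library 3364, a level 9.70-fold lower (8.72 to 10.8) in the former. TEAD4 was 2.77-fold lower (2.36 to 3.27) and TEAD2 4.02-fold higher (3.08 to 5.31). They were the 2 lower and the 1 higher member past 2-fold, beside 20.0% and 23.2% of 16904 features. The log2 ratio of WWTR1 was −3.28, and −2.67 with at least 4000 UMIs per barcode and −4.48 with the mean of per-nucleus CPM, while that of TEAD4 was −1.47 and −2.22 with the latter. The median of the members was −0.53 and that of all features −0.09. The median of the members was 0.035 with at least 4000 UMIs, where its sign turned, and −1.18 with the mean of per-nucleus CPM, where 6 members in place of 3 were 2-fold apart. The share of all features past 2-fold was not counted under that mean, so the larger count is not read as a result about the members. Scaling to the features with at least 100 UMIs in both libraries would shift these log2 ratios by 0.25, since their median was −0.25.

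Among ribosomal-rich barcodes, 9 of the 10 genes had at least 20 UMIs in the 2 sums. Of these, 7 were at least 2-fold lower in the blastoid and 1 higher, beside 25.9% and 9.83% of 11207 features, with medians of −1.37 over the members and −0.35 over all features. WWTR1 was 13.2-fold lower (7.60 to 22.5), WWC1 4.59-fold lower (3.40 to 6.10) and TEAD2 was counted at 153 against 1 UMI (ratio 7.85, 1.39 to 312). The blastocyst side of this comparison is thin. In its 57 barcodes, the top barcode was found for each gene apart. It held 78.3% of the WWC1 UMIs, 64.0% of those of WWTR1, 58.8% of those of YAP1 and all 6 UMIs of TEAD4. Whether it was the same barcode for these genes was not examined. AMOTL2 was counted at 11 UMIs in the blastoid but 0 in these 57 barcodes, where 3 counts would be 17.9 CPM, so no fold is given. At a ribosomal limit of 10%, the log2 ratio of WWC1 was −0.71 in place of −2.20, that of YAP1 −0.33 in place of −1.37, that of TEAD1 −0.69 in place of −1.44 and that of WWTR1 −2.99 in place of −3.72. TEAD4 and LATS2 were further apart there, at −2.99 and −3.03 in place of −1.58 and −1.12, and TEAD2 changed direction. With the mean of per-nucleus CPM, TEAD4 also changed direction, to 3.12.

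Detection in single nuclei was compared after each nucleus had been thinned to 2000 UMIs, because deeper nuclei detect more genes. WWTR1 was seen in 48.7% (42.2% to 55.3%) of blastocyst and 11.8% (7.03% to 18.2%) of blastoid trophectoderm-like nuclei. Without thinning these shares were 81.5% and 59.5%. For comparison, YAP1 was seen in 55.1% and 46.5% at 2000 UMIs, with overlapping intervals. The lower WWTR1 sum of the blastoid thus went with fewer nuclei in which the gene was seen, and no nucleus held more than 4.57% of its UMIs.

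WWC1 was seen in 70.9% (64.7% to 76.7%) of blastocyst and 74.3% (66.4% to 81.2%) of blastoid trophectoderm-like nuclei. In the hypoblast-like class the share was 8.38%, in the epiblast-like class 12.3% and in the unnamed blastoid nuclei 9.45%. Markers of another class give the level of such shares in each class. GATA2, which marks trophectoderm, was seen in 1.31% of hypoblast-like nuclei, and HNF4A in 0.855% of blastocyst and 0% of blastoid trophectoderm-like nuclei, all at 2000 UMIs. In the unnamed blastoid nuclei GATA2 was seen in 7.09% (3.29% to 13.0%), an interval that overlapped that of WWC1 (4.98% to 15.9%). These are different genes, seen in 48.6% (GATA2) and 74.3% (WWC1) of blastoid trophectoderm-like nuclei. The overlap therefore cannot decide whether the WWC1 share in unnamed nuclei is above background, and no such reading is made. For TEAD2, TEAD3, LATS1, LATS2 and AMOTL2 the shares in the trophectoderm-like classes were between 1.71% and 11.1%, with overlapping intervals between the libraries. TEAD4 was seen in 13.7% and 11.1%, and TEAD1 in 66.7% (60.2% to 72.7%) and 52.8% (44.3% to 61.1%).

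**Figure D3:**
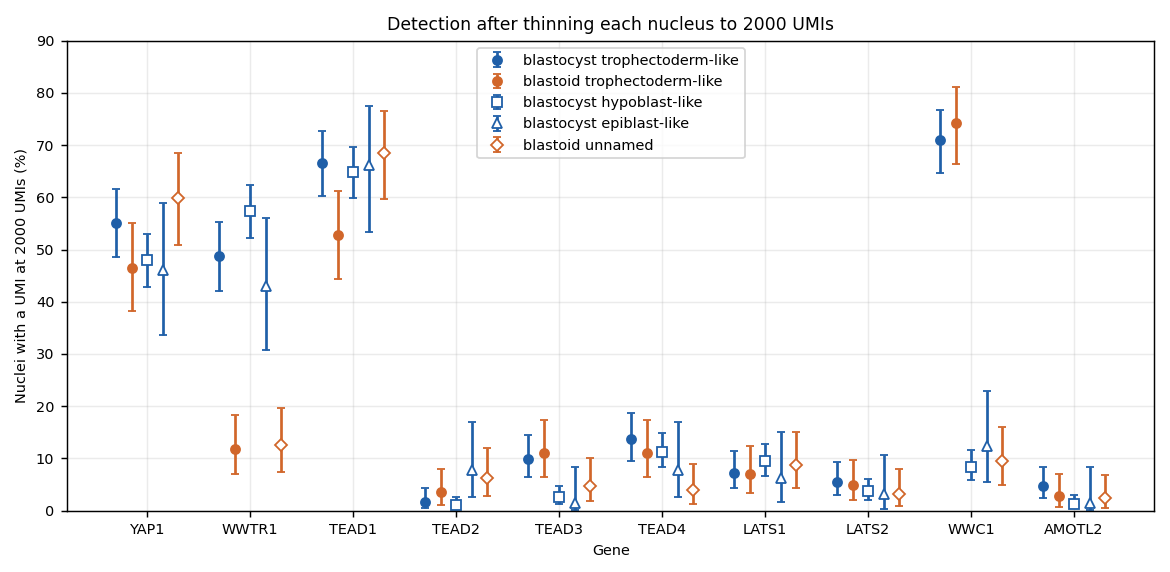
Share of nuclei with at least 1 UMI of each gene, in percent, after thinning every nucleus to 2000 UMIs, for 5 classes. Bars are exact Clopper-Pearson 95% intervals. WWTR1 separates the libraries, with 48.7% against 11.8% in trophectoderm-like nuclei, and WWC1 separates trophectoderm-like nuclei from the rest in both.

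The genes around the 10 members were followed in lists of the pathway. They hold 92 symbols, the members included, of which 86 were found. The lists were rerun only with other UMI minimums and not under other filters, clusterings or class rules. In the core kinase list (LATS1, LATS2, the MST kinases, their adaptors and the kinases that act beside them), 2 of 20 measured genes were at least 2-fold higher in blastoid than in blastocyst trophectoderm-like nuclei and 0 lower, fewer than the 18.0% and 13.2% of all features. MAP4K4, a kinase that can act on LATS in parallel with the MST kinases, was at 309 CPM in the blastoid and 37.5 CPM in the blastocyst, 8.24-fold higher (6.60 to 10.4). Between lineages of the blastocyst the list was mixed, with 4 of 20 higher and 5 lower in trophectoderm-like than in hypoblast-like nuclei, beside 12.9% and 17.2% of all features. NF2, the membrane-linked activator of LATS known as Merlin, was 2.02-fold higher, and TNIK and MAP4K4, both MAP4K-type kinases, were 3.53-fold and 2.71-fold lower. In the blastoid, NF2 was again higher, 3.39-fold (2.83 to 4.08) over the unnamed nuclei, and STK38, a relative of the LATS kinases, was 4.86-fold lower.

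Junction and scaffold regulators, the list of WWC1 and AMOTL2, had more genes past 2-fold upward than downward in trophectoderm-like nuclei. In the blastocyst, 12 of 25 were at least 2-fold higher than in hypoblast-like nuclei and 2 lower, beside 12.9% and 17.2% of all features, and the median was 0.98 beside −0.21. In the blastoid, 11 of 27 were higher than in unnamed nuclei and 3 lower, beside 17.1% and 19.4%, with a median of 0.67 beside 0.00. AMOT, the angiomotin that tethers YAP at junctions, was at 100 CPM in blastocyst trophectoderm-like and 4.49 CPM in hypoblast-like nuclei, 22.3-fold higher (13.2 to 40.5). Within the blastoid AMOT was 8.24-fold higher (4.85 to 15.1), although 1 nucleus held 20.4% of its trophectoderm-like UMIs. Its paralog AMOTL1 ran the other way, at 19.2 against 56.0 CPM in the blastocyst and 10.9 against 140 CPM in the blastoid. WWC3, a paralog of WWC1, was 17.0-fold higher (12.4 to 23.7) in blastocyst trophectoderm-like nuclei. Comparing the trophectoderm-like nuclei of the libraries, 1 of 26 junction genes was higher and 2 were lower in the blastoid, fewer than the 18.0% and 13.2% of all features. WWC2, the third WWC paralog, was one of the lower genes, at 146 against 427 CPM (2.92-fold, 2.59 to 3.31), so that WWC1 and WWC2 differed in direction. LLGL1, a basolateral polarity protein, was the other, 2.29-fold lower (1.62 to 3.29). In whole libraries 2 of 27 junction genes were higher in the blastoid and 6 lower, beside 23.2% and 20.0%. PRKCI, an atypical protein kinase C of the apical complex, was 4.61-fold lower (4.12 to 5.17) there. In ribosomal-rich barcodes 15 of 25 were lower and 0 higher, beside 25.9% and 9.83%, with the thin blastocyst side described above.

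WTIP, which belongs to the AJUBA family of LATS inhibitors, was at 37.6 CPM in blastoid and 10.2 CPM in blastocyst trophectoderm-like nuclei, 3.68-fold higher (2.32 to 6.04). VGLL4, a TEAD-binding protein that competes with YAP, was at 432 CPM and 495 CPM. It was higher in the trophectoderm-like class within each library, 2.19-fold over hypoblast-like nuclei and 2.16-fold over the unnamed blastoid nuclei.

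The last lists hold genes downstream of the coactivators. The target signature is a set of genes described as YAP and TAZ targets in cancer cells that includes LATS2 and AMOTL2. In the blastocyst, 13 of 18 measured target genes were at least 2-fold higher in trophectoderm-like than in hypoblast-like nuclei and 3 lower, beside 12.9% and 17.2% of all features (median 1.25, beside −0.21). NUAK2, an AMPK-related kinase, was 17.3-fold higher (7.59 to 48.7), and CCN1, a secreted matrix protein, 16.9-fold (8.59 to 38.0), with 29.0% of its 107 UMIs in 1 nucleus. F3, tissue factor, was 6.36-fold higher (3.73 to 11.5), while IGFBP3, which binds insulin-like growth factors, was at 8.53 against 34.1 CPM. In the blastoid, 8 of 20 were higher in trophectoderm-like than in unnamed nuclei and 4 lower, beside 17.1% and 19.4% (median 0.73, beside 0.00). MYOF, a membrane protein of the ferlin family, was at 614 against 51.0 CPM, and RBMS3, an RNA-binding protein, at 27.2 against 516 CPM.

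Between the trophectoderm-like nuclei of the libraries, 6 of 18 target genes were at least 2-fold higher in the blastoid and 1 was lower, beside 18.0% and 13.2% of all features, with a median of 0.39 beside 0.08. CRIM1, a membrane protein that binds BMPs, was at 445 against 115 CPM (3.88-fold, 3.39 to 4.45), and NT5E, the surface enzyme CD73, at 30.1 against 7.67 CPM (3.92-fold, 2.32 to 6.99). GADD45A, a growth arrest and DNA damage gene, was 2.30-fold lower (1.64 to 3.28). ANKRD1, a classical YAP target, was counted at 134 against 13 UMIs, a ratio of 10.1 (5.72 to 19.5). Its blastoid UMIs lay in 7 of the 148 nuclei, and 1 nucleus held 38.1% of them, so this ratio describes a few nuclei and not the class. At resolution 1, the cluster of 41 nuclei held 132 ANKRD1 UMIs in 5 nuclei. Of its 7 nuclei with TGFB2, a growth factor of the same list, 4 also had ANKRD1, and 1 nucleus held 70 of the 94 TGFB2 UMIs. In whole libraries, 10 of 21 target genes were at least 2-fold higher in the blastoid and 0 lower, beside 23.2% and 20.0% of all features (median 0.93, beside −0.09). The highest were FJX1, a secreted protein that modifies FAT signalling, at 71 against 1 UMI (ratio 65.1, 11.3 to 2608), and AXL, a receptor tyrosine kinase, at 66 against 2 (30.3, 8.05 to 255). Most FJX1 UMIs, 56, lay in ribosomal-rich barcodes. Between epiblast-like and hypoblast-like nuclei 1 of 12 target genes was higher and 2 were lower, beside 5.46% and 6.68%. In ribosomal-rich barcodes, 4 of 18 were higher and 5 lower, beside 9.83% and 25.9% (median −0.08, beside −0.35).

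**Figure D4:**
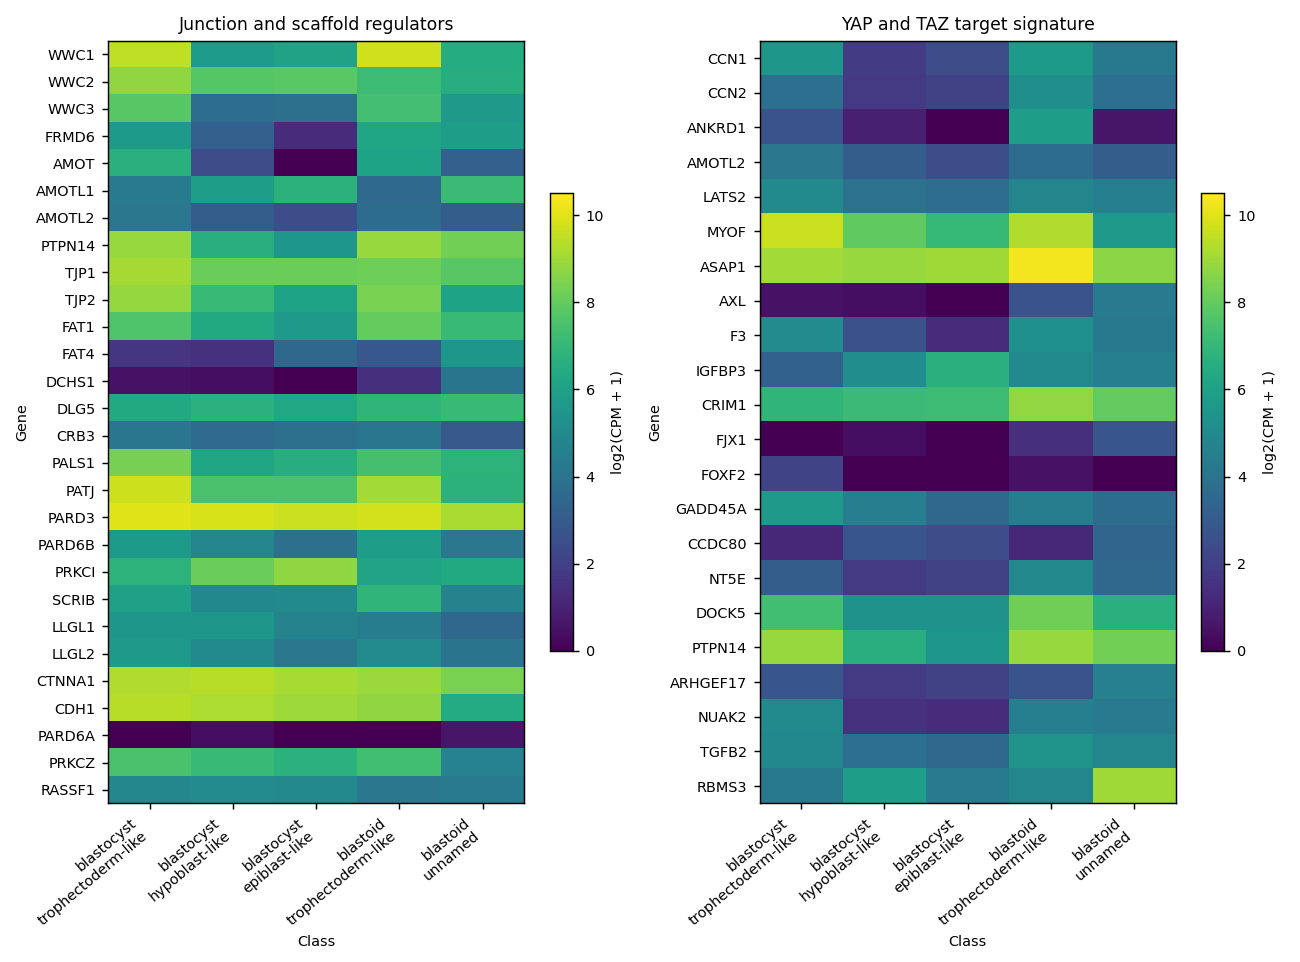
Levels of the junction and scaffold regulators (left) and of the YAP and TAZ target signature (right) in 5 classes, as log2(CPM + 1). The colour is to be compared along a row, between classes, and not between genes. AMOT, WWC1 and WWC3 are brightest in the trophectoderm-like classes, while AMOTL1 and RBMS3 are brightest in the unnamed blastoid nuclei.

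Genes that the mouse embryo places downstream of TEAD4 were also counted, but CDX2, GATA3, TFAP2C, KRT8 and KRT18 are among the markers that named the trophectoderm-like class, so their contrast between classes is not a result. Between the trophectoderm-like nuclei of the libraries, 1 of 6 measured genes of that list was 2-fold higher in the blastoid and 0 lower, beside 18.0% and 13.2% of all features. In whole libraries 4 of 6 were higher and 0 lower, beside 23.2% and 20.0%, with a median of 1.94 beside −0.09. They were KRT18 (5.45-fold), KRT8 (4.44-fold), CDX2 (4.03-fold) and ELF5 (3.67-fold), the last named after its values were seen. The different class makeup of the libraries is in these sums.

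The genes whose level ran most like that of a member over the 8 classes were listed as a description, from 4904 genes with at least 200 UMIs in each library. The classes of a library come from the same run and differ in depth and in ribosomal share, and the part of these in the correlations was not tested. For WWTR1 they were KDM6A, MFSD14B and HK2 (Pearson r of 0.994, 0.992 and 0.991). For YAP1 they were PHKB, POLA1 and PIK3C2A (0.993, 0.991 and 0.982), and for TEAD4 PLEKHG3, CNOT1 and SEPTIN11 (0.979, 0.978 and 0.974).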

How the data were processed

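The deposited values are UMI counts per feature and barcode, which the authors made with Cell Ranger (version 7.2.0, per the file headers), while the submitters' processing notes list Cell Ranger 7.1.0 and Seurat 4.3.0. Genome build and annotation are not given in the sources used here, so no coordinates or sequences are printed. The deposited feature lists gave the symbols.

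Barcodes with at least 500 genes and under 10% of UMIs from 13 mitochondrial genes were kept (1944 of 1957 blastoid, 833 of 944 blastocyst), and the highest doublet scores (Scrublet in scanpy 1.11.5, 0.8% per 1000 barcodes; 30 and 6 barcodes) were removed. Barcodes over 5% ribosomal protein UMIs were set apart. The rest were clustered per library on 2000 variable genes without markers and pathway lists (30 principal components, 15 neighbours, leidenalg 0.10.2, resolution 0.5). A cluster was named from at least 3 markers with at least 100 UMIs and 1.5 times the CPM of the other clusters, 1.5 times as many as for any other class; it stayed unnamed if its 10 leading genes went against the name or if it was shallow with none of its markers leading.

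The class rule was changed after its first names had been seen. The first version applied the ribosomal limit to whole clusters and asked for 2 times as many markers. It named 0 blastoid nuclei trophectoderm-like and 355 blastocyst nuclei, among them ribosomal-rich barcodes, so the trophectoderm-like comparison between libraries had no value under it. With the limit on each barcode, asking for 2 times as many markers gave the same names.

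The 10 members, the gene lists and the comparisons were chosen with earlier results of these data known. UMIs were summed per class. CPM values carry exact Poisson intervals, ratios exact conditional intervals and shares Clopper-Pearson intervals (scipy 1.17.1). For medians and counts past 2-fold, counts under 3 were set to 3, and genes needed 20 UMIs over both sums. Named genes are all members and, per comparison and list, up to 3 others with the highest and up to 3 with the lowest ratio among those with at least 50 UMIs and past 2-fold, not all of which are printed. Named outside that rule, after their values were seen, were TGFB2, ELF5 and the markers GATA2, HNF4A and NANOG. So were VGLL4 and AMOTL1 where not past 2-fold, and leading genes of clusters. For TEAD4, YAP1 and WWTR1, the 3 genes of highest Pearson correlation of log2(CPM + 1) over classes of at least 50 barcodes are named. The ratio and its interval were tested on simulated data. The alternatives changed filters, doublets, scaling, the summary, the clustering and the class rule. For the pathway lists only the UMI minimum was changed.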

Additional observations from a re-analysis of the deposited data

Results flagged for a closer look

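For 3 of the 10 genes, the trophectoderm-like nuclei differed from the other nuclei under the ribosomal limit in opposite directions in the libraries, with intervals that did not include 1. The share of all features that meet this rule was not counted, so the count is not read as a result about the members. YAP1 had a ratio of 0.831 in the blastoid and 1.17 in the blastocyst. WWTR1 had a ratio of 1.37 in the blastoid and 0.824 in the blastocyst. TEAD1 had a ratio of 0.639 in the blastoid and 1.15 in the blastocyst. The differences between the libraries were not tested, since each group had 1 library, and the other nuclei are of different classes in each: unnamed in the blastoid, hypoblast-like, epiblast-like and unnamed in the blastocyst.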

How the results depend on the processing

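No paired analysis was possible because each group had 1 library. In trophectoderm-like nuclei, the log2 ratio of blastoid to blastocyst stayed between −2.42 and −2.22 for WWTR1 and between 1.61 and 1.96 for TEAD2 in the 14 alternatives with a value. For WWC1 the blastocyst contrast with hypoblast-like nuclei stayed between 3.32 and 3.84 in 15. The alternatives overlap, so their numbers here and below are not numbers of independent checks. A marker ratio of 2 with the limit on each barcode gave the main names, so its ratios could not move. The ribosomal limit of 10% entered with either marker minimum, each time with 152 blastoid and 338 blastocyst trophectoderm-like nuclei. At resolution 0.3 these numbers were 148 and 238, as in the main setting. Of 718 single ratios under alternatives, 624 stayed inside their counting interval. Of 59 such ratios, 16 had the other sign in at least 1 alternative: 9 of 10 between epiblast-like and hypoblast-like nuclei, 3 of 10 in whole libraries (YAP1, LATS2 and WWC1), 1 of 10 in trophectoderm-like nuclei (LATS1), 1 of 10 in the blastoid (AMOTL2) and 2 of 9 in ribosomal-rich barcodes. Of those past 2-fold, the sign changed for TEAD3 between epiblast-like and hypoblast-like nuclei (1.47 with at least 1000 genes), and in ribosomal-rich barcodes for TEAD4 (3.12 with the mean of per-nucleus CPM) and TEAD2 (−0.98 at a ribosomal limit of 10%, with either marker minimum).

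The whole-library median was 0.035 with at least 4000 UMIs and −1.18 with the mean of per-nucleus CPM, where 6 members were 2-fold apart. The number of members 2-fold apart between trophectoderm-like and hypoblast-like nuclei was 2 with that mean or with gated classes. Between epiblast-like and hypoblast-like nuclei it was 4 with at least 1000 genes, 0 with gated classes, and 2 without doublet removal, with the mean, at resolution 1 and with the ribosomal limit on whole clusters. In ribosomal-rich barcodes it was 5 at a limit of 10%. The shares of all features past 2-fold were counted at the main setting only.

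With a minimum of 100 UMIs, list medians were −0.69 (TEAD factors, trophectoderm-like) and −1.37 (coactivators, ribosomal-rich). With no minimum, the VGLL median was −0.52 (trophectoderm-like), 0.46 (epiblast-like), 0.57 (blastoid) and −2.89 (ribosomal-rich), that of the LATS inhibitors 0.34 (trophectoderm-like) and −2.70 (ribosomal-rich), and that of the TEAD4 list 0.45 (epiblast-like). These changes follow from the smaller or larger sets of genes; for the other values the cause was not tested.

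No value was available for the epiblast-like class in 3 alternatives: with pathway genes kept in the clustering, with markers from 20 UMIs and a ribosomal limit of 10%, and with the ribosomal limit on whole clusters and a marker ratio of 2. The comparison of ribosomal-rich barcodes had none with at least 4000 UMIs or with the limit on whole clusters, at either marker ratio. With that limit and a marker ratio of 2, 0 blastoid barcodes were trophectoderm-like, so neither comparison that uses them had a value. The share of promoters with a TEAD motif was not run, because no sequences were used here. Few UMIs stand behind the values of TEAD2 and AMOTL2 and behind those of ribosomal-rich blastocyst barcodes.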
